A study of Mus musculus with 6 samples.

Results

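The adult globin genes of the mouse were followed in RNA-seq libraries of articular cartilage. A list of 5 genes was searched by gene name in a deposited table of 34709 genes, and 4 of them were found: Hbb-bs and Hbb-bt, which encode the beta chains of adult haemoglobin, and Hba-a1 and Hba-a2, which encode the alpha chains. The remaining 1 of the 5 was not analysed here. The libraries came from articular cartilage of knockout (KO) mice and of wildtype (WT) mice, with 3 libraries labelled for each genotype and no treatment, time point or batch in the labels. Per the study's methods the KO line was on a C57BL/6J background and came from a commercial supplier, and the mice of the study were male. Per the study, the sequenced cartilage of both genotypes came from aged mice of the same age. The labels did not say whether a library was made from 1 mouse or from several. The p-values below therefore measure only the spread between these samples, which may be technical.

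Haemoglobin carries oxygen in red blood cells and joins alpha and beta chains in equal number, each chain holding 1 heme. Globin transcripts are made in erythroid precursors, which in adult mice lie in the bone marrow and spleen, and the reticulocytes released from there still carry them after the nucleus has been lost. Articular cartilage is known as a tissue without blood vessels, and its chondrocytes have also been described to make haemoglobin, so globin transcripts in this tissue can have more than 1 source. In bulk RNA, fewer cells of a type and less RNA per cell cannot be told apart.

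The libraries are called KO1 to KO3 and WT1 to WT3 by their replicate numbers. KO2 and KO3 stood apart from the other libraries by their likeness. Across genes, which are not independent replicates, Pearson's r of their log2 values was 0.996, whereas the other 14 pairs of libraries ranged from 0.980 to 0.990. Their counts differed far less than those of any other pair. They were averaged and counted as 1 sample, so that 2 KO samples stood against 3 wildtype samples, and values for the 6 libraries as labelled are given where they matter. Total counts ranged from 52268311 to 63331135 per library, and 2.39% to 3.05% of them fell on mitochondrial genes.

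The labelled tissue was checked against its markers. The cartilage collagen Col2a1 lay between 12.4 and 21.3 FPKM (fragments for each kilobase of transcript, relative to library size) in all libraries, and Acan, which encodes the proteoglycan aggrecan, between 13.2 and 22.8 FPKM. Of 16 chondrocyte markers, 13 passed a mean of 0.5 FPKM, and Matn1, Matn3 and Col9a1 did not. The summed FPKM of all 16 was 1500 in KO1, 683 in the mean of KO2 and KO3, and 670 to 893 in wildtype libraries. The largest part of this sum was Prg4, with 1034 FPKM in KO1, 436 in KO2, 441 in KO3 and 402 to 581 in wildtype libraries. The 4 globin genes summed to 24523 FPKM even where they were lowest, in the mean of KO2 and KO3. Neutrophil markers summed to between 27977 and 64168 FPKM, so the globin sum and the neutrophil sum both exceeded the chondrocyte sum in every sample.

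Each of the 4 genes has 3 exons in the annotation of the GRCm38 assembly. Hbb-bs (ENSMUSG00000052305) was placed at chr7:103826534-103827928 and Hbb-bt (ENSMUSG00000073940) at chr7:103812524-103813996, both on the minus strand with 12537 bases between them. Hba-a1 (ENSMUSG00000069919) was placed at chr11:32283511-32284465 and Hba-a2 (ENSMUSG00000069917) at chr11:32296489-32297298, both on the plus strand and 12023 bases apart. The coding sequence was 444 bases long in the beta genes and 429 bases in the alpha genes.

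The copies of each pair can hardly be told apart by coding sequence, and the stretches around their 1 differing base are shown for that reason. Counted from the A of the start codon, Hbb-bs and Hbb-bt differed by C417T, with a longest identical run of 416 bases, and Hba-a1 and Hba-a2 differed by C381T, with a run of 380 bases. All 4 stretches lie in exon 3 and are written 5′ to 3′ on the coding strand, with the differing base in capitals. They cover chr7:103826672-103826712, chr7:103812663-103812703, chr11:32284323-32284363 and chr11:32297140-32297180 in the order shown.
Hbb-bs: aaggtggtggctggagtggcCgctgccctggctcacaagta
Hbb-bt: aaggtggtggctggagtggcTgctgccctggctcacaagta
Hba-a1: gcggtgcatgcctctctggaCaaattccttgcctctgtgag
Hba-a2: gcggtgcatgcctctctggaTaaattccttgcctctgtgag

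The transcripts also differ outside the coding part, and reads were 150 bp long. Of all 150-base windows of the Hbb-bs transcript, 58.7% occurred without a mismatch in that of Hbb-bt, and 50.7% of the Hbb-bt windows occurred in Hbb-bs. The same share was 48.4% for Hba-a1 in Hba-a2 and 65.7% for Hba-a2 in Hba-a1. These shares are for single windows, whereas the libraries were read in pairs, for which no share was computed. How the authors' counting divided such reads between copies is not given in the sources used here. The division of counts within a pair is therefore uncertain, whereas the sum of each pair does not depend on that division.

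The promoters of the pairs differed in likeness. They are shown to describe the 4 genes, and their part in the transcript levels was not tested. Sequences of the 150 bases before the annotated start were taken from RefSeq (GRCm38.p6), where all 4 genes matched by symbol, and Hba-a2 stands for the alpha pair. The windows are chr7:103827929-103828078 and chr7:103813924-103814073 on the minus strand for the beta genes, and chr11:32296342-32296491 on the plus strand for Hba-a2. The RefSeq starts of Hbb-bt, Hba-a1 and Hba-a2 lie inside the gene spans given in the deposited table, so the table and RefSeq differ on where these transcripts begin. Capitals mark matches on either strand to the CACCC box known from erythroid promoters, to the CCAAT box found in many promoters, and to the letters ATATAA, which resemble the element that sets the start in many promoters.
Hbb-bs: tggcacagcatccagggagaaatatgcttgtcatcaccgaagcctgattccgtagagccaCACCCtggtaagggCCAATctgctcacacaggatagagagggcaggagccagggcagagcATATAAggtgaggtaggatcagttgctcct
Hbb-bt: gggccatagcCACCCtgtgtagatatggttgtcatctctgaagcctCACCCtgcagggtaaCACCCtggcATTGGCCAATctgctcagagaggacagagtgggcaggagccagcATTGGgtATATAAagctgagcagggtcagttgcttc
Hba-a2: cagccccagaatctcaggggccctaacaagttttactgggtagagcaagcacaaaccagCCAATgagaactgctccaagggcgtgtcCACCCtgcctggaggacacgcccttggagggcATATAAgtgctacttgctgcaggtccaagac

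Over the 250 bases before the start, the alpha promoters were identical along 247 aligned bases, and the beta promoters matched at 73.3% of 243 aligned bases. Each of the 4 windows held 1 ATATAA match, which began 28 to 31 bases before the start and was present in 9.1% of 32851 promoters of the same length. CACCC occurred 1 time in Hbb-bs, 3 times in Hbb-bt and 2 times in each alpha gene, against 52.0% of all promoters with at least 1 match. CCAAT occurred 1 time in Hbb-bs and in each alpha gene and 3 times in Hbb-bt, where a match on the opposite strand (ATTGG) abuts one on the same strand. CCAAT was found in 33.8% of all promoters. The GATA letters AGATAA, found in 9.99% of promoters, occurred in Hbb-bs, and TGATAA, found in 7.94%, in both alpha genes, in each case upstream of the printed stretch. Such matches describe letters in a window and not bound sites.

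The beta genes gave the more abundant transcripts. Hbb-bs measured 25197 FPKM in KO1, 9667 in KO2, 9546 in KO3, 27612 in WT1, 34461 in WT2 and 45387 in WT3. Hbb-bt measured 16619 FPKM in KO1, 6513 in KO2 and 6463 in KO3, against 19212 in WT1, 23201 in WT2 and 28811 in WT3. Both genes were lowest in KO2 and KO3, and KO1 lay below the lowest wildtype library, at 0.913 times its Hbb-bs level and 0.865 times its Hbb-bt level. By counts, Hbb-bs was the most abundant gene of all in each wildtype library, ranked 2 in KO1 and ranked 6 in KO2 and KO3.

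The alpha genes had the same order of libraries as the beta genes. Hba-a1 measured 9700 FPKM in KO1, 4516 in KO2, 4490 in KO3, 12575 in WT1, 12707 in WT2 and 18190 in WT3. Hba-a2 measured 8406 FPKM in KO1, 3963 in KO2 and 3887 in KO3, against 11255 in WT1, 11599 in WT2 and 14772 in WT3. Both genes were lower in KO without overlap, as were 16.0% of all tested genes by FPKM with 5 samples. KO1 reached 0.771 times the lowest wildtype level for Hba-a1 and 0.747 times for Hba-a2. In every one of the 6 libraries the FPKM order was Hbb-bs, Hbb-bt, Hba-a1 and Hba-a2.

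**Figure D1:**
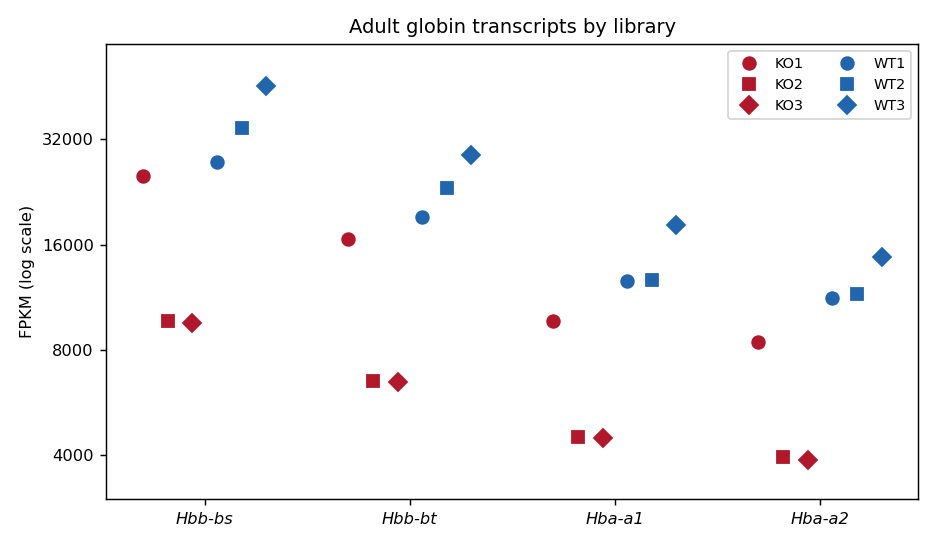
FPKM (log scale) of the 4 adult globin genes, with 1 point for each library, KO in red and wildtype (WT) in blue, and the replicate given by the shape. For each gene KO2 and KO3 sit together at the bottom. KO1 sits below the lowest wildtype library, at 0.913 times its level for Hbb-bs and 0.747 times for Hba-a2.

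As group values, the Hbb-bs level was 17402 ± 11024 FPKM (SD) in the 2 KO samples and 35820 ± 8965 FPKM (SD) in the 3 wildtype samples. The corresponding values were 11554 ± 7164 and 23741 ± 4822 FPKM for Hbb-bt, 7101 ± 3675 and 14491 ± 3204 FPKM for Hba-a1, and 6165 ± 3169 and 12542 ± 1939 FPKM for Hba-a2. The KO mean was thus between 0.486 and 0.492 times the wildtype mean for all 4 genes. The SD of the KO samples was large because they lay far apart: Hbb-bs was 2.62-fold and Hba-a2 2.14-fold higher in KO1 than in the mean of KO2 and KO3.

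Whether the 4 genes differed between genotypes was tested with edgeR's quasi-likelihood test over 15373 genes. The log2 difference (KO minus wildtype) was -0.999 (SE 0.645, adjusted p = 0.583) for Hbb-bs and -0.997 (SE 0.575, adjusted p = 0.526) for Hbb-bt. It was -0.99 (SE 0.504, adjusted p = 0.463) for Hba-a1 and -0.98 (SE 0.462, adjusted p = 0.421) for Hba-a2. None of the 4 passed the threshold of an adjusted p under 0.05. Across all tested genes 0 passed it by edgeR (0% of genes), 2106 genes (13.7%) had an unadjusted p under 0.05, and none of the globin genes was among them. DESeq2 called 880 genes on the same samples, with an adjusted p of 0.128, 0.110, 0.0660 and 0.0522 for Hbb-bs, Hbb-bt, Hba-a1 and Hba-a2. All 4 globin genes were lower in both KO samples than in the 3 wildtype samples on the scale of CPM (counts scaled to the library total), as were 18.1% of all tested genes.

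The size of the difference depended on KO1. Without it, the log2 difference was -1.94 for Hbb-bs, -1.91 for Hbb-bt, -1.72 for Hba-a1 and -1.71 for Hba-a2. With KO1 as the only KO sample, the same differences were -0.43, -0.44, -0.50 and -0.50. Those 2 fits take the spread of a lone sample from the wildtype samples. The direction was the same in both, and the adjusted p stayed above 0.05 in both. With the 6 libraries as labelled, which counts KO2 and KO3 separately, the differences ranged from -1.25 for Hbb-bs (adjusted p = 0.225) to -1.19 for Hba-a2 (adjusted p = 0.131). In that fit 570 genes (3.71%) were called, and none was an adult globin gene, although all 4 had an unadjusted p under 0.05 and a lower value in KO, as did 10.3% of all tested genes.

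The weight of globin in each library was then taken as the share of all counts. The 4 genes took 4.98% of counts in KO1, 2.04% in KO2, 2.01% in KO3, 5.98% in WT1, 6.97% in WT2 and 8.96% in WT3. The means were 3.50% ± 2.09 (SD, n = 2) and 7.30% ± 1.52 (SD, n = 3), and the groups did not overlap. The difference of -3.80 percentage points had p = 0.2 in a two-sided exact permutation test, which is the smallest p that 2 against 3 samples allow. The difference was -5.28 points without KO1 and -2.32 points with KO1 alone. Counting error was small beside these differences, with a 95% Wilson interval of 8.94% to 8.97% in WT3 and 2.01% to 2.02% in KO3 when counts were divided by 4. Intervals and limits cover counting error only.

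**Figure D2:**
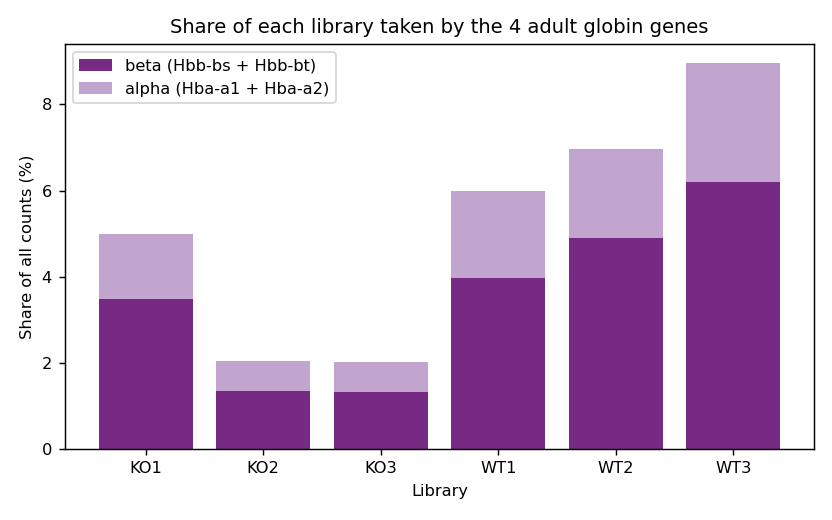
Share of all counts (%) taken by the beta genes (dark) and alpha genes (light) in each library, stacked from 0. The bars reach 5.98% to 8.96% in wildtype libraries, 4.98% in KO1 and 2.04% and 2.01% in KO2 and KO3.

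A high share of one transcript class lowers the share left for all others. Of the summed FPKM, the globin genes held 13.5% in KO1, 6.76% in KO2 and 6.65% in KO3, against 18.5% in WT1, 19.0% in WT2 and 25.3% in WT3. When the scaling and library totals were computed without the globin genes, the log2 difference of Hbb-bs was -0.99 and the median over all tested genes was -0.00463, against -0.0158 with them.

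Alpha and beta transcripts were compared within each library, since the proteins are needed in equal number. The ratio of alpha to beta FPKM was 0.433 in KO1, 0.524 in KO2, 0.523 in KO3, 0.509 in WT1, 0.422 in WT2 and 0.444 in WT3. Beta transcripts were the more abundant in all 6 libraries, and the groups overlapped. The mean log2 ratio was -1.07 ± 0.194 (SD, n = 2) in KO and -1.13 ± 0.140 (SD, n = 3) in wildtype samples, a difference of 0.06 (two-sided exact permutation test, p = 0.6). That difference was 0.20 without KO1 and -0.08 with KO1 alone, so its sign rested on the KO library used. Counts gave nearly the same ratios as FPKM, 0.422 to 0.526.

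The ratios within a pair varied less. Hbb-bs to Hbb-bt FPKM was 1.52 in KO1, 1.48 in KO2 and 1.48 in KO3, against 1.44 in WT1, 1.49 in WT2 and 1.58 in WT3. Hba-a1 to Hba-a2 was 1.15 in KO1, 1.14 in KO2, 1.16 in KO3, 1.12 in WT1, 1.10 in WT2 and 1.23 in WT3. For both pairs the highest and the lowest ratio were found in wildtype libraries, and the KO libraries lay between them. Hbb-bt to Hba-a1, the step from beta to alpha, ranged more widely, from 1.44 to 1.83.

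**Figure D3:**
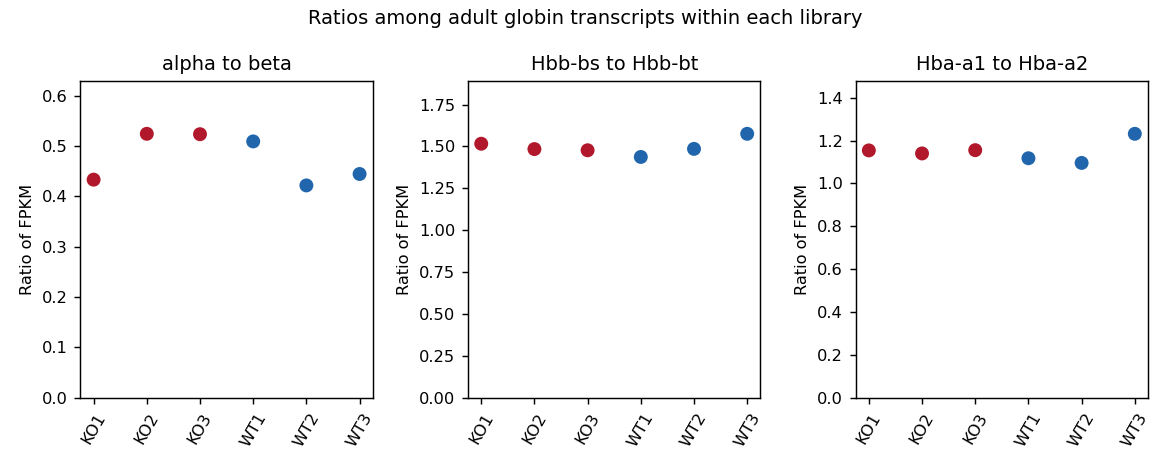
Ratio of FPKM within each library (y axis from 0) for alpha to beta, Hbb-bs to Hbb-bt and Hba-a1 to Hba-a2, with KO libraries in red and wildtype (WT) libraries in blue. The alpha to beta ratio runs from 0.422 to 0.524 with both groups across that range, and the ratios within pairs run from 1.44 to 1.58 and from 1.10 to 1.23.

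Other members of the globin family were far less abundant. Of 10 further globin genes listed, 8 were measured and 6 passed the filter, of which 3 had a higher and 3 a lower value in KO, and none passed the test. Without KO1 all 6 were lower. The theta-type genes Hbq1a and Hbq1b lie in the alpha globin cluster. Hbq1b measured 26.5 FPKM in KO1, 12.3 in KO2 and 12.7 in KO3, against 25.7 in WT1, 29.5 in WT2 and 36.2 in WT3. Its log2 difference was -0.60 (SE 0.348, adjusted p = 0.527), and KO1 lay inside the wildtype range. Hbq1a and Hbq1b together amounted to 0.170%, 0.171% and 0.175% of alpha FPKM in the KO libraries and 0.127%, 0.140% and 0.130% in the wildtype libraries. This ratio was higher in the KO libraries, of which KO2 and KO3 count as 1 sample, and it was not tested. Both genes themselves had negative log2 differences (-0.68 for Hbq1a and -0.60 for Hbq1b), smaller in size than those of the alpha genes. These 2 genes are copies whose counts may be divided by the authors' counting.

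The embryonic globins were close to the floor. Hbb-y, a beta-like chain of the embryo, had 169 counts in KO1, 0 in KO2, 0 in KO3, 63 in WT1, 38 in WT2 and 13 in WT3. Hbb-bh1, a second embryonic beta-like chain, had 162 counts in KO1, 0 in KO2 and 5 in KO3, against 71 in WT1, 34 in WT2 and 15 in WT3. Both were highest in KO1, and a count of 0 allows, at 3 units of 4 deposited counts each, up to 12 counts, or 0.190 CPM in KO2. Together they made up at most 0.0217% of adult beta FPKM, in KO1. Hba-x, the embryonic alpha-like chain, had between 0 and 24 counts and was not tested.

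Mb, which encodes the oxygen-binding myoglobin of muscle, did not follow the adult globins. It measured 14.5 FPKM in KO1, 0.141 in KO2, 0 in KO3, 1.27 in WT1, 1.49 in WT2 and 5.27 in WT3. All 9 listed skeletal muscle markers together summed to 194 FPKM in KO1, 4.30 FPKM in the mean of KO2 and KO3, and 43.6 to 366 FPKM in the wildtype libraries. Muscle transcripts thus separated KO2 and KO3 from all other samples, as the adult globins did, and their part in the results was not tested.

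The transcription factors of the globin loci had smaller log2 differences than the globins, which was not tested as a difference. Of 14 such genes tested, 11 had a lower value in KO and 0 passed the test, with 4 at an unadjusted p under 0.05 and lower, against 6.07% of all tested genes. Their median log2 difference was -0.28, beside -0.02 over all tested genes. Klf1, the activator of adult beta globin, measured 56.0 FPKM in KO1, 36.6 in KO2 and 35.2 in KO3, against 56.7 in WT1, 70.6 in WT2 and 88.2 in WT3 (log2 difference -0.62, SE 0.270, adjusted p = 0.380). Nfe2, which encodes a subunit of a factor that binds the beta globin control region, had a log2 difference of 0.09 (adjusted p = 0.890), and Lmo2, which encodes an adaptor of the erythroid GATA complex, one of -0.25 (adjusted p = 0.561). With the 6 libraries as labelled, 1 of the 14 was called and lower, where 1.25% of all tested genes were called and lower. It was Sox6 (log2 difference -0.64, adjusted p = 0.0488), a factor known for silencing embryonic globin, named here after its value was seen.

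Genes of heme synthesis and iron supply, whose product fills the globin chains, were lower in KO for 15 of 15 members. Their median log2 difference was -0.54, 12 of 15 did not overlap between groups (18.1% of all tested genes were lower without overlap), 8 had an unadjusted p under 0.05 (6.07% of all tested genes, lower in KO), and 0 passed the test. Alas2, the first enzyme of erythroid heme synthesis, measured 299 FPKM in KO1, 176 in KO2, 178 in KO3, 422 in WT1, 375 in WT2 and 584 in WT3 (log2 difference -0.91, SE 0.322, adjusted p = 0.278). Slc25a37, the mitochondrial iron importer mitoferrin, had a log2 difference of -0.62 (adjusted p = 0.250). Tmem14c, a transporter needed for porphyrin synthesis in the mitochondrion, had one of -0.32 (adjusted p = 0.510).

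Red cell membrane and receptor genes gave a like picture, with 17 of 17 lower in KO, a median log2 difference of -0.66 and 15 at an unadjusted p under 0.05, against 6.07% of all tested genes. By the adjusted p 0 passed the test, and 4 were called and lower with the 6 libraries as labelled, where 1.25% of all genes were called and lower. Slc4a1, the anion exchanger band 3, measured 225 FPKM in KO1, 203 in KO2 and 200 in KO3, against 301 in WT1, 280.5 in WT2 and 410 in WT3 (log2 difference -0.61, SE 0.255, adjusted p = 0.361). Aqp1, which encodes a water channel, had a log2 difference of -0.76 (adjusted p = 0.269).

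Red cell enzymes and other late erythroid genes had 18 of 18 lower values, a median log2 difference of -0.68 and 16 at an unadjusted p under 0.05 (6.07% of all tested genes), and 0 passed the test. With the 6 libraries as labelled 3 of them were called and lower, against 1.25% of all tested genes. The carbonic anhydrase genes Car1 and Car2 had log2 differences of -0.94 (adjusted p = 0.264) and -0.76 (adjusted p = 0.242). Prdx2, an abundant peroxidase of red cells, had one of -0.68 (adjusted p = 0.318).

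The globins stood at the lower end of these lists. Of the 50 genes of the heme, membrane and enzyme lists, 2 had a log2 difference below that of Hba-a2 (-0.98), the member with the smallest difference. They were Bpgm (-1.10), which makes the 2,3-bisphosphoglycerate that lowers the oxygen affinity of haemoglobin, and Rsad2 (-1.11), an interferon-induced gene. With KO1 alone, 28 of the 50 lay below Hbb-bs, then the member with the smallest difference (-0.43), and their median was -0.46. Without KO1, 1 of the 50 lay below Hba-a2 (-1.71), and the median was -0.85. The globins of KO1 were thus in the middle of the erythroid genes, and those of KO2 and KO3 were below nearly all of them.

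The same was seen as a ratio within each library. Summed globin FPKM per FPKM of Slc4a1 was 266 in KO1, 122 in KO2 and 122 in KO3, and between 235 and 292 in wildtype libraries. Per FPKM of Alas2 it was 200 in KO1, 140 in KO2 and 137 in KO3 and 167 to 219 in wildtype libraries. In both ratios KO1 lay inside the wildtype range and KO2 and KO3 below it. Over 9 erythroid genes taken as the denominator, KO2 and KO3 lay below the wildtype range in 9, whereas KO1 lay inside it in 7 and below it in 2. The exceptions were Klf1 (1071 in KO1 against 1161 to 1245 in wildtype libraries) and Hbq1b (2258 against 2753 to 2964).

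**Figure D4:**
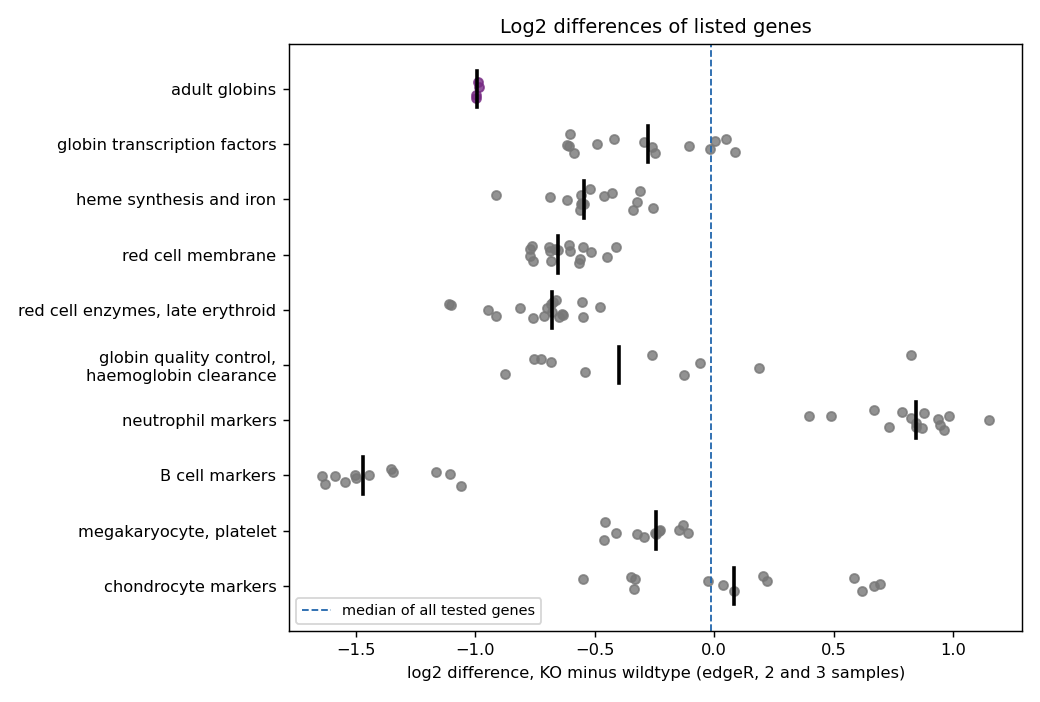
Log2 difference (x axis, KO minus wildtype, edgeR with 2 KO and 3 wildtype samples) of each tested gene of 10 lists, with 1 point for each gene, a black bar at the median of each list and a dashed line at the median of all tested genes (-0.02). The adult globins sit at -0.999 to -0.98, the heme, membrane and enzyme lists have medians of -0.54, -0.66 and -0.68, and the neutrophil and B cell markers lie on opposite sides.

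Genes of globin quality control and haemoglobin clearance were mixed. Of 11 listed, 10 were tested, 8 were lower and 2 higher in KO, with a median log2 difference of -0.40. Hp encodes haptoglobin, which binds free haemoglobin, and is also a transcript of neutrophils. It measured 551 FPKM in KO1, 745 in KO2, 751 in KO3, 345 in WT1, 382 in WT2 and 381 in WT3. All KO libraries were above all wildtype libraries (log2 difference 0.82, SE 0.194, adjusted p = 0.173 with 5 samples, and 0.0367 with the 6 libraries as labelled). By CPM with 5 samples, 11.1% of all tested genes were higher in KO without overlap. Hmox1, the heme oxygenase that degrades heme, had a log2 difference of -0.75 (adjusted p = 0.190, and 0.0476 with the 6 libraries as labelled). Vcam1, a marker of macrophages that take up aged red cells among other cells, had one of -0.54 (adjusted p = 0.264).

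Markers of other cell types are given beside the globins. B cell markers were lower in KO for 12 of 12 genes, with a median log2 difference of -1.47, and summed to 152 FPKM in KO1, 99.1 FPKM in the mean of KO2 and KO3, and 306 to 346 FPKM in wildtype libraries. Neutrophil markers were higher in KO for 15 of 15 genes, with a median of 0.85, and their sum was 64168 FPKM in KO1, 53662 FPKM in the mean of KO2 and KO3, and 27977 to 45005 FPKM in wildtype libraries. By the adjusted p 0 genes of both lists passed with 5 samples, and 11 B cell and 5 neutrophil markers were called with the 6 libraries as labelled, where 1.25% of all tested genes were called lower and 2.46% called higher. Megakaryocyte and platelet markers were lower for 12 of 12 genes with a median of -0.25. Summed FPKM of endothelial markers was 40.6 and 42.4 in the KO samples and 44.8 to 65.3 in wildtype libraries, and that of macrophage markers was 380 and 310 against 371 to 486. Osteoblast markers summed to 1050 and 993 FPKM against 749 to 2070. The part of these cell types in the globin difference was not tested.

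**Figure D5:**
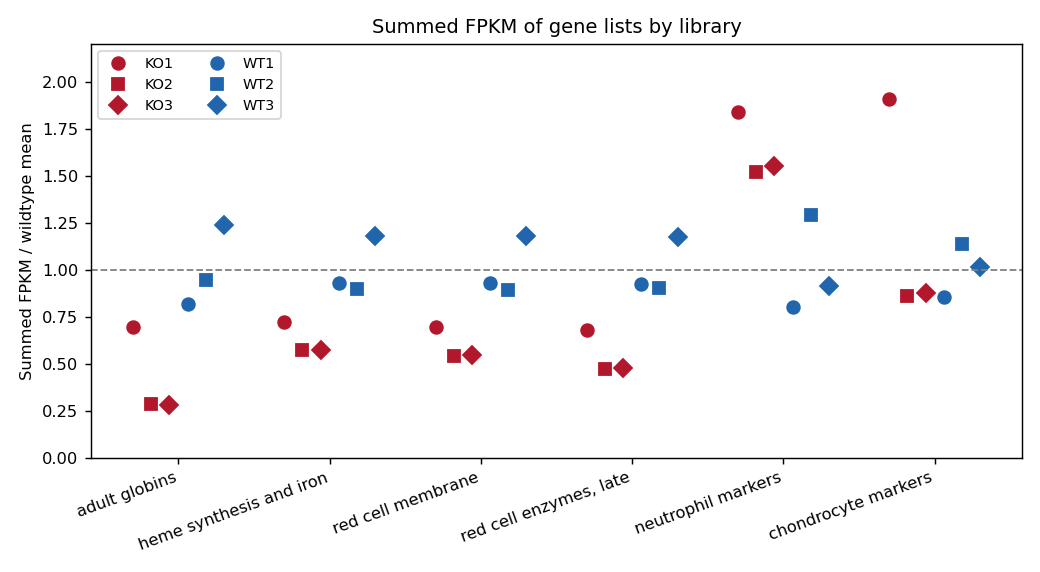
Summed FPKM of 6 gene lists in each library divided by the mean of the 3 wildtype (WT) libraries (dashed line at 1), with KO in red, wildtype in blue and the replicate given by the shape. The adult globins of KO2 and KO3 average 0.283 of the wildtype mean and those of KO1 reach 0.692, while the 3 other erythroid lists lie between 0.474 and 0.721 in the KO samples and the neutrophil markers between 1.54 and 1.84.

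Genes whose profile across samples was most like that of the summed globins were sought among 7610 genes whose mean reached 5 FPKM. The measure was the root mean square difference of centred log2 CPM over the 5 samples, and all genes of a sample share its depth and composition. The 8 closest genes were Fam220a (0.0985), Car1 (0.136), Tspan8 (0.157), Bpgm (0.173), Aldh1a7 (0.183), Ube2l6 (0.188), Fn3k (0.207) and Hbq1b (0.226), beside a median of 0.771 over the genes compared. The 4 globin genes themselves lay between 0.0347 and 0.0951 from their sum. Fam220a measured 28.1 FPKM in KO1, 14.1 in KO2 and 13.4 in KO3, against 34.9 in WT1, 40.9 in WT2 and 49.8 in WT3. Its level was far lower than that of Hbb-bs. The order of libraries was the same, which is largely given by choosing genes for their likeness to the globin sum.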

How the data were processed

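RNA-seq libraries of articular cartilage from KO and wildtype mice were grouped and numbered by their sample titles. The identity of the deleted gene, and 1 gene that the naming rule gave, are not reported here. Per the labels, mRNA captured with oligo(dT) was made into strand-specific libraries with molecular identifiers and read in pairs of 150 bp. The submitters' processing notes name cutadapt 1.9, HISAT2 2.0.4, UMI-tools, StringTie 1.3.4d, DESeq2 and edgeR, without their roles. The authors deposited 1 table that holds FPKM and counts of every gene in every library, with positions on GRCm38. The deposited counts behaved as estimated counts. They were whole numbers, but the value 4 occurred 6596 times, against 4170 times for 3 and 2332 times for 5, so a count was not taken as a read pair and intervals were computed on counts divided by 4. The FPKM values are those of the authors, scaled per library, and were used for levels and for ratios between genes. All per-sample columns were used, and 0 were left out.

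The fit used edgeR 4.0.16 in R 4.3.3 (quasi-likelihood test, TMM scaling, Benjamini-Hochberg adjustment) on genes whose mean reached 0.5 FPKM, 15373 of 34709, after being tested on simulated data. KO replicates 2 and 3 were averaged. Their noise ratio, the spread between 2 libraries relative to Poisson sampling, was 5.77 (1.44 with counts divided by 4), against 23.8 to 85.0 for the other 14 pairs. Ratios and shares were compared by two-sided exact permutation tests (scipy 1.17.1). Alternatives were other scalings, filters, DESeq2 1.42.0, limma 3.58.1, a replicate block and leaving out libraries. The globin genes and all gene lists were chosen with earlier results of these data known, so their counts and medians are descriptions. Genes named were the members, the genes of highest mean FPKM in a list (up to 3) and the 8 genes closest to the globin profile. Col2a1, Acan, Sox6, Rsad2, the embryonic globins and markers under the filter were named in addition.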

Additional observations from a re-analysis of the deposited data

How the results depend on the processing

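The log2 difference of each of the 4 globin genes kept its direction and stayed short of the threshold in all 18 alternatives. It ranged from -1.94 to -0.43 for Hbb-bs and from -1.71 to -0.50 for Hba-a2, with adjusted p-values of 0.128 to 0.865 and 0.0522 to 0.745. The count of called genes was 0 by the planned edgeR test, where 2106 genes had an unadjusted p under 0.05. It was 570 with the 6 libraries as labelled, 21 with no filter, 880 with DESeq2 and 9 with KO1 as the only KO sample. Leaving out 1 library at a time gave 0 to 352 called genes, with 352 without KO1 and 1 each without WT2 or WT3. A lone KO sample was assumed to vary like the wildtype samples. Fewer samples or genes enter some of these fits, and the cause of the changes was not tested.

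The alpha to beta difference (log2, KO minus wildtype) reversed to -0.077 with KO1 alone, and ranged from 0.002 to 0.197 when single libraries were left out. The share of counts differed by -5.28 to -2.97 percentage points when single libraries were left out, and by -10.8 points of summed FPKM in place of counts. The groups share replicate numbers, and deviations of same-numbered libraries from their group means correlated at -0.145, -0.109 and -0.058. These values cannot decide whether the libraries were paired, since KO2 and KO3 are nearly alike and their deviations are tied. The study's methods state that littermates were used for the wildtype and KO mice of its ageing model, and the labels name no pairs. With the replicate block on the 6 libraries as labelled, 0 genes were called, Hbb-bs differed by -1.43 and Hba-a2 by -1.31, the share by -4.29 points and the alpha to beta ratio by 0.11 (exact sign-flip tests of 3 pairs cannot go below p = 0.25). Alternatives for 1 listed gene gave no value, since it was not analysed here. With 2 against 3 samples, single-value permutation tests could not go below p = 0.2.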
